A study of Mus musculus with 12 samples.

Results

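Inward rectifier (Kir) and tandem-pore (K2P) potassium channels were followed along the mouse cochlea in 10 genes: the Kir genes Kcnj2, Kcnj3, Kcnj8, Kcnj11, Kcnj13 and Kcnj16 and the K2P genes Kcnk1, Kcnk2, Kcnk3 and Kcnk10. The members were found by their gene names among the non-control probes of the arrays, and all 10 were present, of 19505 genes measured. Gene expression was measured on 12 single-color exon arrays, 4 each for the apical, the middle and the basal turn, from male C57BL/6 mice aged 6 weeks for which no treatment is named. Each sample was a whole turn, with its lateral wall, organ of Corti and spiral ganglion, and 25 ng of its total RNA was labeled. The methods name 4 mice for the 12 samples, so that the turns came from the same animals, and do not state whether a sample number marks a mouse. The 4 arrays of each turn lay on a slide of their own, so slide and turn cannot be told apart, and the p-values below measure the spread between these samples.

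A Kir channel is formed by 4 subunits that each span the membrane with a pair of helices around a pore loop, and it passes potassium more easily into the cell than out of it, which holds the resting potential near the potassium equilibrium. A K2P subunit carries a pair of pore loops, works as a dimer and gives cells a potassium leak that is set by acid, membrane stretch, lipids and receptors. In the cochlea, potassium that enters hair cells is taken up by supporting cells and fibrocytes of the spiral ligament and returned through the stria vascularis, whose intermediate cells use the Kir channel encoded by Kcnj10 to generate the endocochlear potential.

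The members were read by 32 probes of 60 bases, 1 each for Kcnj2 and Kcnj16, 2 each for Kcnj8, Kcnj13 and Kcnk3, 3 each for Kcnj3, Kcnj11 and Kcnk1, 8 for Kcnk2 and 7 for Kcnk10. Probes are numbered below from the 5′ to the 3′ end of the transcript. The files place them on mouse build mm9, on the strand of the gene. Each transcript is named there, but exon boundaries and coding limits were not analysed here. The first sequences shown are the pair of Kcnj3 probes whose values part most between turns. Probe 1 starts at base 647 of the transcript (chr2:55290214-55290273, plus strand) and probe 2 at base 806 (chr2:55299296-55299355, plus strand).
Kcnj3 probe 1: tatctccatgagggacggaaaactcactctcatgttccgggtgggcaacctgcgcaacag
Kcnj3 probe 2: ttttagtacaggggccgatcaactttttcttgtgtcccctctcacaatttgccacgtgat

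The next is Kcnk2 probe 6 (chr1:191080447-191080506, minus strand), which was higher in the apex than in the middle turn. The capitals mark the 15 bases, from base 33, that match the codons of the potassium selectivity filter. The search, on the strand of the probe alone, took ACN, ATN other than ATG, GGN, a triplet of T or A, T or A, and T or C, and GGN in a row. Of 165865 probes, 12 (0.00723%) held such a stretch, and this was the only member probe among them.
Kcnk2 probe 6: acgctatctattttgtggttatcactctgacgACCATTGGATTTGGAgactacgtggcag

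Kcnk2 and Kcnk10 encode the closely related channels TREK1 and TREK2, so their probes were compared for likeness. Among 2067 pairs of a member probe with a probe of another gene of the family, only 3 were alike at over 70% of at least 40 aligned bases without gaps, and 2 of these paired Kcnk2 with Kcnk10. The capitals mark the shared bases: 46 of 59 (78.0%) for Kcnk2 probe 7 (chr1:191066766-191066825, minus strand) with Kcnk10 probe 6 (chr12:99674403-99674462, minus strand), and 45 of 59 (76.3%) for Kcnk2 probe 4 (chr1:191119480-191119539, minus strand) with Kcnk10 probe 3 (chr12:99734411-99734470, minus strand).
Kcnk2 probe 7: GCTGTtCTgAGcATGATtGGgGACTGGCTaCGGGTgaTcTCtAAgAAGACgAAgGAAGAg
Kcnk10 probe 6: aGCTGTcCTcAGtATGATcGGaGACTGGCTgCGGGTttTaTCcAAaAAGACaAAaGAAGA
Kcnk2 probe 4: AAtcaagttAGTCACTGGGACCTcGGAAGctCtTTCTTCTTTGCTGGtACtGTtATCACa
Kcnk10 probe 3: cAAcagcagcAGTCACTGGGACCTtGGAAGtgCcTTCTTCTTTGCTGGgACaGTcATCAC

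Signals are given below as fluorescence scaled to the 75th percentile of each array, averaged over the probes of a gene on the log2 scale and written in linear units. A difference between turns is a difference of mean log2 values, with its standard error (SE) from limma, and a gene was called when its adjusted p, by Benjamini-Hochberg over all genes, was under 0.05. Before scaling, the 75th percentile of the arrays ranged from 534.6 to 722.1. Spots that stood well above background made up 77.4% to 81.4% of an array, and none was saturated. A probe's brightness cannot be set against that of another probe, so levels are compared between turns only. After scaling, the spike-in control probes stood 0.42 log2 units higher on the apical than the basal arrays, and centring the arrays on them moved the median of all genes from -0.04 to -0.45 log2 units (apical minus basal). The share of called genes that were higher in the apex was 45.0% with the 75th percentile, 26.5% with scaling to the median and 6.41% with the spike-in probes. Between apex and middle the apical share was 36.8%, 18.6% and 4.27% in the same order, and between middle and base the share of the middle turn was 55.9%, 38.1% and 10.4%, and 45.0% with quantile normalization. Differences are therefore relative to the bulk of genes on the arrays.

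The signals of cell type markers differed between the turns as well, as the plot of marker sums shows. Of the markers of each cell type, 7 of 7 for hair cells, 6 of 8 for spiral ganglion neurons, 6 of 6 for Schwann and satellite glia and 3 of 5 for supporting cells were called higher apically than basally, while 5 of 5 for fibrocytes of the spiral ligament, 5 of 6 for strial intermediate cells, 4 of 5 for strial marginal cells, 4 of 8 for pericytes, 5 of 5 for macrophages, 3 of 5 for endothelium, 3 of 5 for choroid plexus, pigment epithelium and other transport epithelium, 1 of 5 for bone and 0 of 3 for red blood cells were higher basally. Calls against these directions numbered 1 each for neurons, supporting cells, pericytes and endothelium. All markers of these lists were well above background on at least 1 array. The summed signal of the neuronal markers lay between 27169 and 35591 on the apical arrays, and was 10754, 5352, 22989 and 8055 on basal arrays 1 to 4, so that the third basal array stood apart. Middle array 1 held the highest sum, 43850, against 24606 to 28372 on the other middle arrays. In tissue of this kind, fewer cells of a type and less RNA per cell cannot be told apart.

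**Figure D1:**
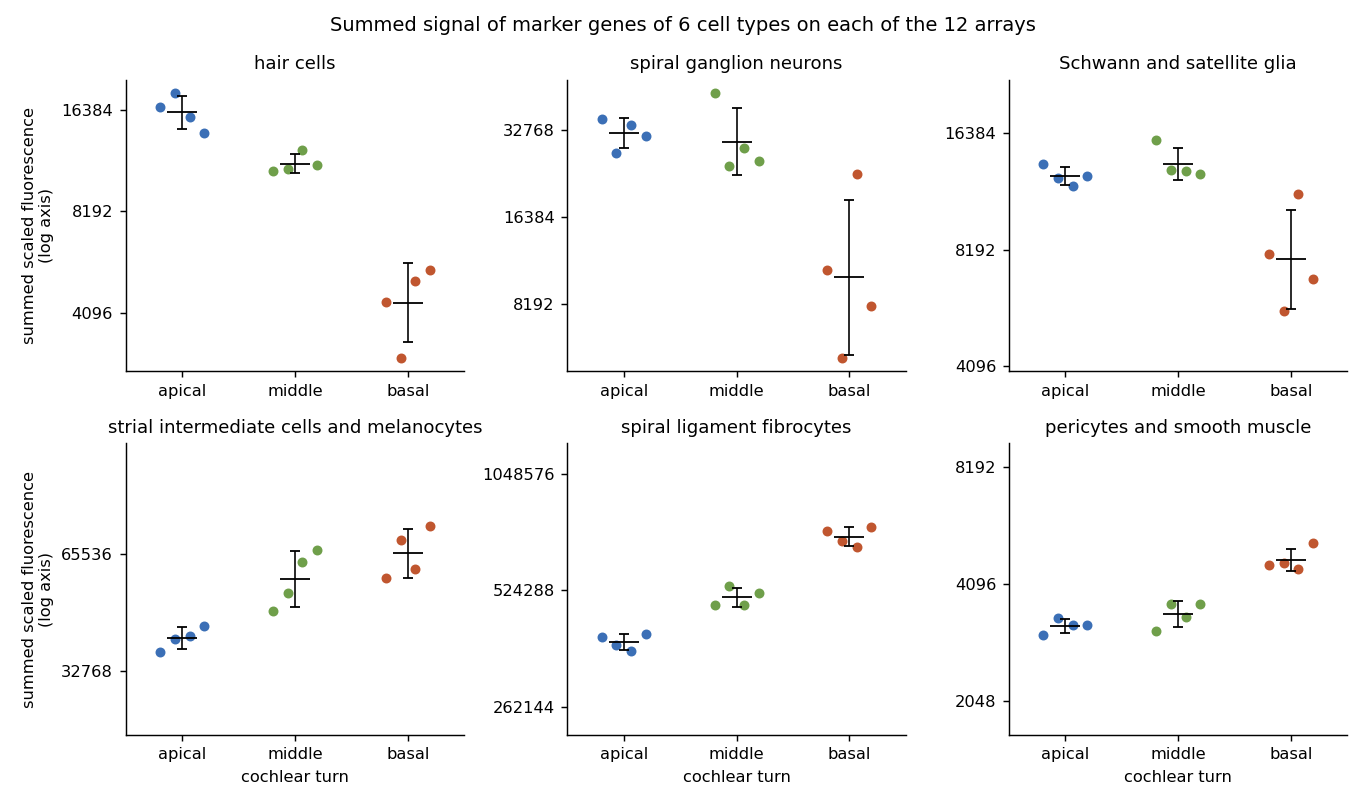
Summed scaled fluorescence (log axis, arbitrary units) of the marker genes of 6 cell types on each of the 12 arrays, in the order of replicates 1 to 4 within a turn. Points are arrays, the horizontal bar is the mean of the log2 values and the error bar its SD (n = 4). Hair cell sums fell from 14023 to 18389 in the apex to 3003 to 5493 in the base, and fibrocyte sums rose from 364697 to 403734 in the apex to 677324 to 762998 in the base.

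Between the apical and basal turns, 6 of the 10 members were called. Kcnj3, Kcnj11, Kcnk3 and Kcnk10 were higher in the apex, where 17.6% of all genes were called in that direction. Kcnj8 and Kcnj16 were higher in the base, where the share of all genes was 21.6%. Kcnj3, Kcnj11 and Kcnk3 differed 2-fold or more, as did 4.47% of all genes. The median difference of the 10 members was 0.18 log2 units, beside -0.04 for all genes.

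**Figure D2:**
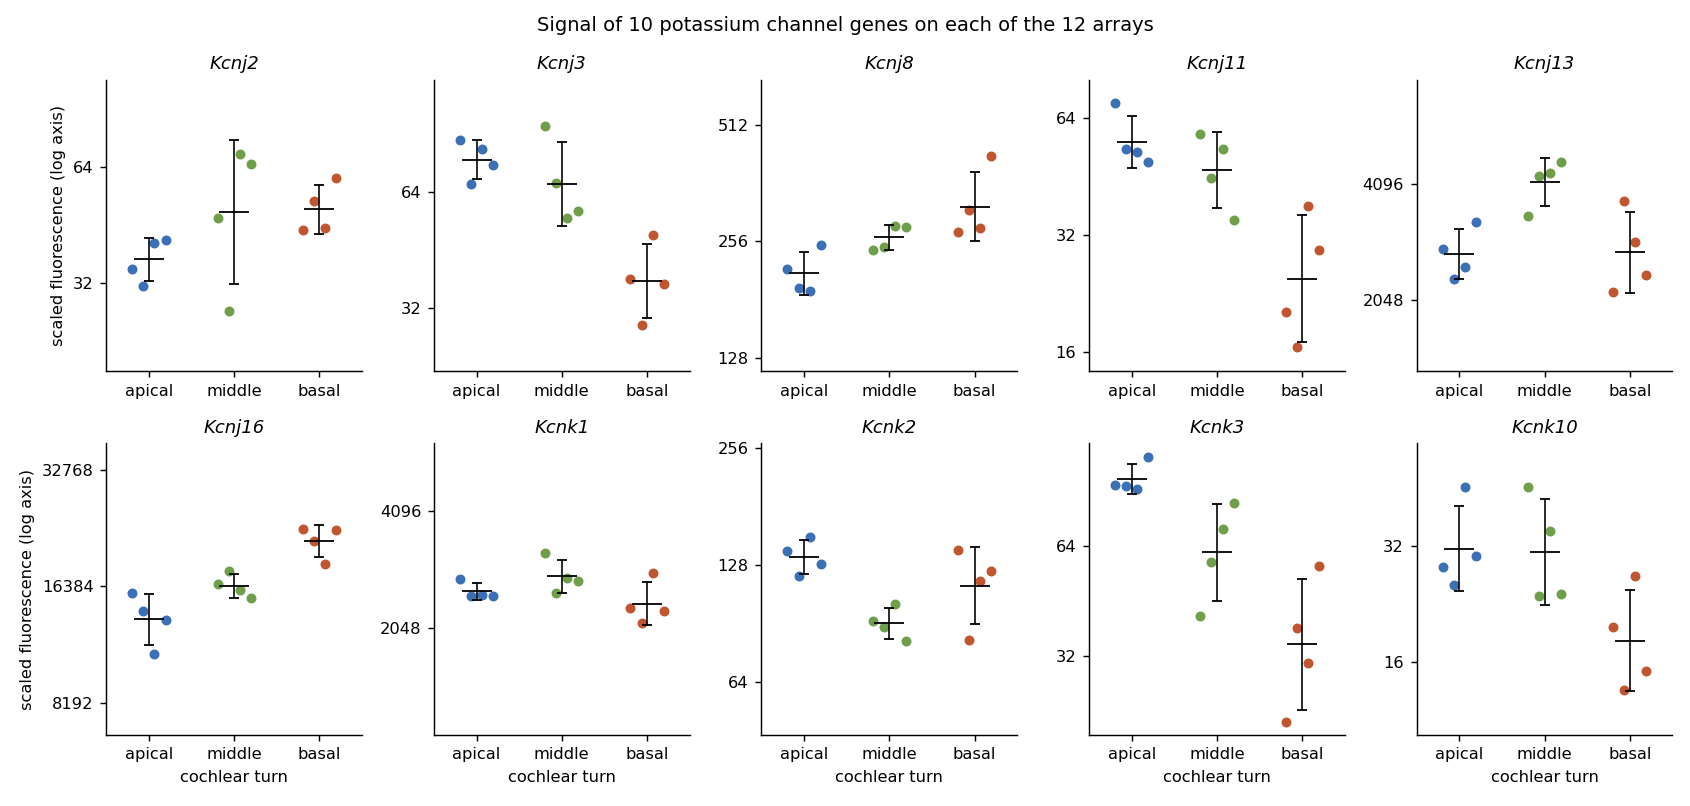
Scaled fluorescence (log axis, arbitrary units) of each member on each of the 12 arrays, in the order of replicates 1 to 4 within a turn. Points are arrays, the horizontal bar is the mean of the log2 values and the error bar its SD (n = 4). Kcnj3, Kcnj11 and Kcnk3 are lowest in the base, Kcnj8 and Kcnj16 are highest there, Kcnj13 is highest in the middle turn and Kcnk2 is lowest in it.

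Kcnj3 encodes Kir3.1, a subunit of the channels that G protein beta-gamma subunits open when receptors for acetylcholine, GABA or other inhibitory transmitters are active. Its signal was 86.9, 66.9, 82.2 and 74.9 on the apical arrays, 94.7, 67.3, 54.6 and 57.1 on the middle arrays, and 38.0, 28.9, 49.5 and 36.9 on the basal arrays. Every apical and every middle array was above every basal array, and the apical and middle arrays overlapped. The apical turn exceeded the basal turn by 1.04 log2 units (2.06-fold, SE 0.19, adjusted p = 0.0013 in limma), and the middle turn exceeded the basal turn by 0.83 (SE 0.19, adjusted p = 0.012). Apex and middle differed by 0.21 (95% interval -0.21 to 0.63), which was not called. The highest basal value belonged to array 3, on which the neuronal markers were also highest, and without it the difference between apex and base was 1.17 log2 units (adjusted p = 0.00067). The part of neuronal RNA in the Kcnj3 difference was not tested.

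Kcnj11 encodes Kir6.2, which forms the pore of ATP-sensitive potassium channels. Its signal was 70, 53.4, 52.4 and 49.5 on the apical arrays, 58.3, 44.9, 53.4 and 34.9 on the middle arrays, and 20.3, 16.4, 38.1 and 29.3 on the basal arrays. All apical values lay above all basal values, and the lowest middle array fell below the highest basal array, which was again array 3. Kcnj11 exceeded its basal level in the apex by 1.18 log2 units (2.26-fold, SE 0.25, adjusted p = 0.0032), and in the middle turn by 0.93 (SE 0.25, adjusted p = 0.022). The call between middle and base was lost without middle array 1 (adjusted p = 0.069), basal array 1 (adjusted p = 0.060) or basal array 2 (adjusted p = 0.061), with quantile normalization (0.74, adjusted p = 0.059) and with only these turns in the fit (adjusted p = 0.057). Apex and middle differed by 0.25 (95% interval -0.30 to 0.80), and this sign turned when only probes well above background were averaged (-0.07).

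Kcnk3 encodes TASK1, a leak channel that is closed by extracellular acid. With the 75th percentile scaling it had the largest difference between apex and base of the 10 members, while that of Kcnj16 was slightly larger with spike-in centring (-1.09 against 1.08) and with the normexp correction (-0.65 against 0.62). Its signal was 93.7, 93.1, 91.5 and 112.0 on the apical arrays, 41.1, 57.9, 71.1 and 83.7 on the middle arrays, and 21.2, 38.2, 30.7 and 56.5 on the basal arrays. The apical arrays were close together and stood above all other arrays, and the middle and basal arrays overlapped. The apex exceeded the base by 1.50 log2 units (2.82-fold, SE 0.28, adjusted p = 0.0015). The steps from apex to middle (0.66, 95% interval 0.05 to 1.28, adjusted p = 0.13) and from middle to base (0.83, 95% interval 0.22 to 1.45, adjusted p = 0.056) were not called. Both were called when only probes well above background were averaged, which leaves 1 of the 2 probes: 0.79 with an adjusted p of 0.016, and 1.01 with an adjusted p of 0.0026. They were called in 5 and 6 of 14 other ways of processing, and the step from middle to base was called without middle array 1 (1.03, adjusted p = 0.035) or basal array 4 (1.07, adjusted p = 0.020). Among these 14 ways is a fit to the value table of the series, which holds the same values and could only repeat the main fit. The highest basal value of Kcnk3 was on array 4, but its probes differed in this. Probe 1, well above background on no basal array, read 6.3, 17.8, 7.2 and 30.4 on basal arrays 1 to 4. Probe 2 read 72.0, 81.9, 131 and 105 and was highest on array 3. Hair cell sums on basal arrays 1 to 4 were 4405, 3003, 5096 and 5493, highest on array 4. The sums of fibrocytes, strial intermediate cells, pericytes and endothelium were also highest on basal array 4, whereas the neuronal and glial sums were highest on array 3. Hair cell, neuronal and glial marker sums fell toward the base on these arrays, and their part in the differences of Kcnk3, Kcnj11 and Kcnk10 was not tested.

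Kcnk10 encodes TREK2, a leak channel opened by stretch, heat and polyunsaturated fatty acids. Its signal was near background, with 28.2, 25.4, 45.4 and 30.2 on the apical arrays, 45.5, 23.8, 34.9 and 24.0 on the middle arrays, and 19.8, 13.6, 26.7 and 15.2 on the basal arrays. The lowest apical value was below the highest basal value, on array 3, so the groups overlapped. The difference between apex and base was 0.79 log2 units (SE 0.27, adjusted p = 0.037), and it was called without basal array 3 as well (0.98, adjusted p = 0.014). The call was lost with 6 of 14 other ways of processing and on leaving out apical array 1, 3 or 4 or basal array 1, 2 or 4 (0.62 to 0.85, adjusted p up to 0.10), and the difference was 0.19 with an adjusted p of 0.19 under the normexp background correction. The middle turn was 0.76 above the base (95% interval 0.17 to 1.36, adjusted p = 0.067).

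The gene values of Kcnj3, Kcnj11 and Kcnk3 each include a probe 1 that was well above background on no basal array, and for Kcnj11 on no array at all. When the average was confined to probes that cleared background throughout a turn, the apical excess over the base was 1.04, 1.20 and 1.79 log2 units, and for Kcnj3 this still holds probe 1. For these dim genes the size of the difference changed with the background correction. With the normexp correction, which leaves an offset in the signal, the apical excess over the base was 0.31 log2 units for Kcnj3, 0.45 for Kcnj11 and 0.62 for Kcnk3, with adjusted p values of 0.022, 0.0039 and 7.7e-05. With the arrays centred on the spike-in probes it was 0.62, 0.76 and 1.08, and for Kcnk10 it was 0.37 and no longer called (adjusted p = 0.24). The direction held for all 4 genes under each alternative.

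Kcnj16 and Kcnj8 had the opposite profile. Kcnj16 encodes Kir5.1, which forms channels together with the Kir4.1 subunit encoded by Kcnj10. Its signal was 15770, 14160, 10971 and 13366 on the apical arrays, 16587, 17920, 15971 and 15237 on the middle arrays, and 23008, 21382, 18668 and 22943 on the basal arrays. Every basal array was above every other array, and the apical and middle arrays overlapped. Kcnj16 was higher in the base by 0.67 log2 units than in the apex (-0.67 as apical minus basal, 1.59-fold, SE 0.11, adjusted p = 0.00063) and differed by -0.39 between middle and base (SE 0.11, adjusted p = 0.028). Apex and middle differed by -0.29 (95% interval -0.52 to -0.05, adjusted p = 0.10), and this was called with spike-in centring (-0.45, adjusted p = 0.014). The call between middle and base was lost on leaving out middle array 1 or 4 or basal array 1, 2 or 4 (-0.39 to -0.35, adjusted p up to 0.074) and with quantile normalization (-0.27, adjusted p = 0.097). Between apex and base the difference was -1.09 with spike-in centring and -0.40 with quantile normalization, and it was called under both. Fibrocyte and strial marker sums rose toward the base on the same arrays, and their part in the Kcnj16 difference was not tested. The strial intermediate sum includes Kcnj10, which held 17934 of 36676 on apical array 1 and 34386 of 77209 on basal array 4. That sum and the Kcnj10 values given below are therefore not separate observations.

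Kcnj8 encodes Kir6.1, the pore of the ATP-sensitive channel of pericytes and vascular smooth muscle. Its signal was 216, 194, 190 and 251 on the apical arrays, 243, 248, 280 and 279 on the middle arrays, and 271, 307, 277 and 424 on the basal arrays. All basal arrays exceeded all apical arrays, with basal array 4 the highest, and the middle arrays lay between and overlapped both. The difference between apex and base was -0.57 log2 units (1.49-fold, SE 0.14, adjusted p = 0.0071), and it was -0.43 without basal array 4 (adjusted p = 0.0092). With spike-in centring it was -0.99 (adjusted p = 0.00021). The steps to the middle turn, -0.31 (95% interval -0.62 to -0.00) from apex to middle and -0.26 (95% interval -0.57 to 0.04) from middle to base, were not called. With spike-in centring both were, at -0.47 (adjusted p = 0.044) and -0.52 (adjusted p = 0.024). The summed signal of the pericyte and smooth muscle markers lay between 3030 and 3354 in the apex and between 4492 and 5214 in the base, but the list was mixed: Acta2, the actin of smooth muscle, was higher in the base by -1.21 as apical minus basal, while Des, desmin, was higher in the apex by 0.90. The part of these cells in the Kcnj8 difference was not tested.

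Kcnj13 and Kcnk2 had their highest and their lowest mean in the middle turn. Between apex and middle, Kcnk2 was called higher in the apex, beside 4.42% of all genes in that direction, and Kcnj13 was called higher in the middle turn, beside 7.59% of all genes. No member differed 2-fold or more there, and 0.390% of all genes did. Between middle and base, Kcnj3, Kcnj11 and Kcnj13 were called higher in the middle turn, beside 11.7% of all genes, and Kcnj16 was called higher in the base, beside 9.21%. No member reached 2-fold between middle and base, as 2.66% of all genes did. These calls share arrays of the middle turn, so that they are not independent of each other.

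Kcnj13 encodes Kir7.1, a channel of low conductance found in transporting epithelia such as the choroid plexus and the retinal pigment epithelium. Its signal was 2777, 2322, 2504 and 3266 on the apical arrays, 3377, 4294, 4356 and 4659 on the middle arrays, and 2158, 3707, 2896 and 2377 on the basal arrays. All middle arrays were above all apical arrays, and 3 of them were above all basal arrays, of which array 2 was highest. The middle turn exceeded the apex by 0.62 log2 units (-0.62 as apical minus middle, SE 0.17, adjusted p = 0.040) and the base by 0.60 (SE 0.17, adjusted p = 0.028). Each of these calls was close to the threshold: the first was lost without apical array 1, 2 or 3 or middle array 2, 3 or 4 (-0.63 to -0.55, adjusted p up to 0.11), and the second without middle array 2, 3 or 4 or basal array 1 or 4 (0.49 to 0.59, adjusted p up to 0.078). The first was also lost with quantile normalization (-0.54, adjusted p = 0.059), with the median of probes (adjusted p = 0.051) and with an unmoderated test (adjusted p = 0.059), and the second with only these turns in the fit (adjusted p = 0.055) and with spike-in centring (0.35, adjusted p = 0.16). Apex and base differed by -0.02 (95% interval -0.39 to 0.36). The summed signal of 5 markers of choroid plexus, pigment epithelium and other transport epithelium had another order. It was 1195 to 2094 in the apex, 2271 to 3418 in the middle turn and 7934 to 12836 in the base. The list was mixed, and Rbp4 gave most of the basal rise, with means of 29.13, 69.04 and 6462 in this order of turns. Ttr also rose toward the base, and Folr1 was lowest in the middle turn. Kl and the dim Rpe65 had their highest means in the middle turn, as Kcnj13 had. Kl had means of 333.7, 512.6 and 337.2 and was called against apex and base (adjusted p = 0.0016 and 7e-04). Rpe65 was called against the apex only. For 5 strial marginal cell markers the sum was 13003 to 14439, 16292 to 18892 and 18663 to 21318 in the same order of turns. The part of either list in the Kcnj13 differences was not tested.

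Kcnk2 encodes TREK1, a channel opened by membrane stretch, intracellular acid and lipids. Its mean was lowest in the middle turn, with a signal of 140, 120, 151 and 129 on the apical arrays, 91.9, 88.4, 101.3 and 81.4 on the middle arrays, and 140, 82.0, 116 and 124 on the basal arrays. All middle arrays were below all apical arrays, and basal array 2 fell among the middle arrays. The apex exceeded the middle turn by 0.57 log2 units (1.48-fold, SE 0.15, adjusted p = 0.031), which was lost without apical array 1, 2 or 3 or middle array 1, 2 or 4 (0.51 to 0.62, adjusted p up to 0.087) and with the normexp correction (0.31, adjusted p = 0.084), spike-in centring (0.41, adjusted p = 0.075) or the median of probes (0.50, adjusted p = 0.091). The middle turn differed from the base by -0.32 (95% interval -0.65 to -0.00, adjusted p = 0.14), and the call was made without basal array 2 (-0.48, adjusted p = 0.015), with spike-in centring (-0.58, adjusted p = 0.017) and with quantile normalization (-0.44, adjusted p = 0.037). Apex and base differed by 0.24 (95% interval -0.08 to 0.57, adjusted p = 0.22).

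Kcnk1 and Kcnj2 were called in no comparison of turns. Kcnk1 encodes TWIK1, a weakly active leak channel. Its signal was 2737, 2476, 2488 and 2473 on the apical arrays, 3192, 2522, 2743 and 2698 on the middle arrays, and 2305, 2099, 2832 and 2267 on the basal arrays, and all groups overlapped. Its differences were 0.11 for apex minus base (95% interval -0.11 to 0.32), -0.13 for apex minus middle (95% interval -0.34 to 0.08) and 0.24 for middle minus base (95% interval 0.02 to 0.45, adjusted p = 0.11). Centring on the spike-in probes turned the first into a called difference toward the base (-0.31, adjusted p = 0.019), and without basal array 3 the last was called (0.32, adjusted p = 0.017).

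Kcnj2 encodes Kir2.1, the strong inward rectifier of muscle and neurons. It was near background, and its single probe was well above background on 3 apical, 3 middle and 4 basal arrays. Its signal was 34.8, 31.5, 40.5 and 41.4 on the apical arrays, 47.1, 27.1, 69.1 and 64.8 on the middle arrays, and 44.0, 52.1, 44.5 and 59.8 on the basal arrays. The apical arrays lay below all basal arrays, and the middle arrays spread widely, with array 2 the lowest of all 12. The difference between apex and base was -0.43 (95% interval -0.99 to 0.12, adjusted p = 0.21). It passed the threshold without middle array 2 (adjusted p = 0.042) and in 4 of 14 other ways of processing, with the normexp correction (-0.22, adjusted p = 0.033) and spike-in centring (-0.85, adjusted p = 0.015) among them. Apex and middle differed by -0.41 (95% interval -0.96 to 0.15), or by -0.69 without middle array 2 (adjusted p = 0.033), and middle and base by -0.02 (95% interval -0.58 to 0.53).

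**Figure D3:**
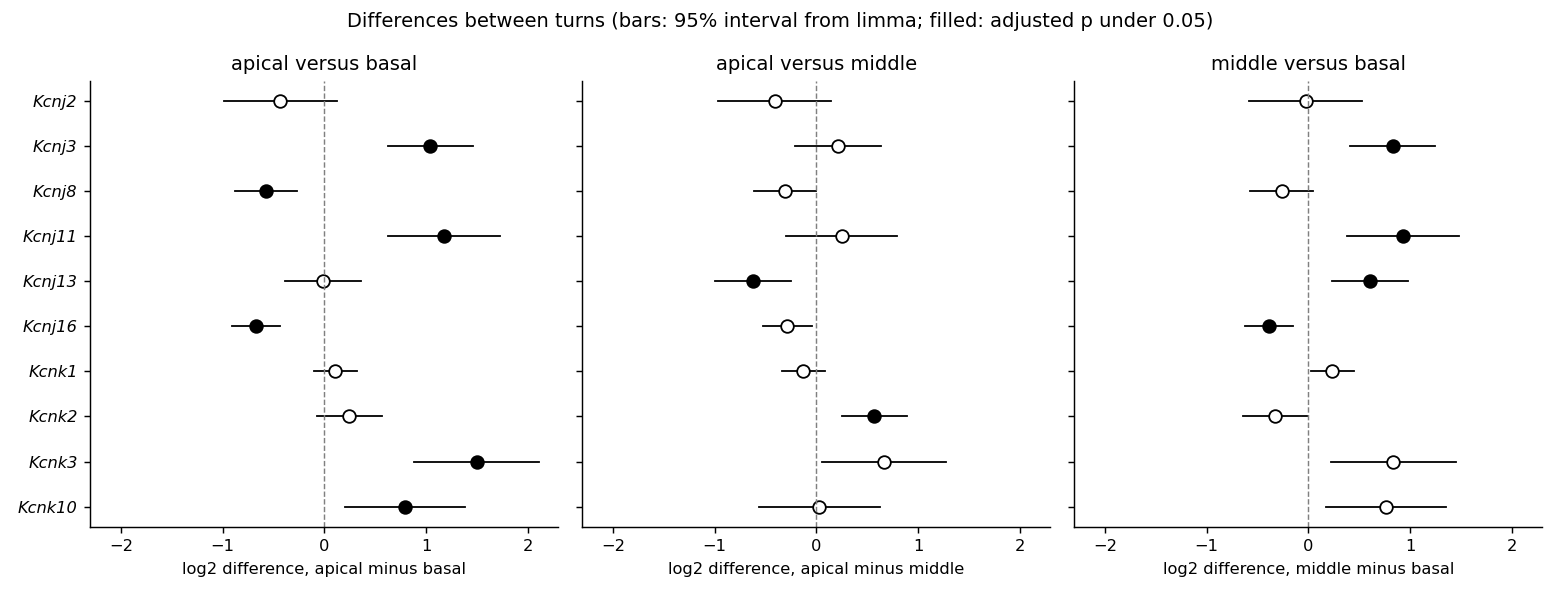
Log2 difference between turns (x axis) for each member (rows) in the 3 comparisons. Points are differences of means of 4 arrays, bars are 95% intervals from limma, and filled points have an adjusted p under 0.05. Kcnk3 lies at 1.50 between apex and base, and Kcnj13 lies at -0.62 between apex and middle and at 0.60 between middle and base.

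Single probes were tested on the same scale, with adjustment over 165865 probes. Between apex and base, 7 member probes were called toward the apex and 3 toward the base, beside 18.0% and 16.4% of all probes. Between apex and middle, 3 member probes were called higher in the apex (3.04% of all probes) and none in the middle turn. The share of all probes called toward the middle turn was not counted, and that of all genes was 7.59%. Between middle and base, 7 were called higher in the middle turn (7.76% of all probes) and 1, that of Kcnj16, in the base (6.02% of all probes). Both probes of Kcnj8 were called toward the base against the apex (-0.50 with adjusted p = 0.0073 and -0.65 with adjusted p = 0.015), and both probes of Kcnj13 were called higher in the middle than the basal turn (0.60 and 0.61, each with adjusted p = 0.042).

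Each probe was also compared with the mean of the other probes of its gene, a test that was added after the values had been seen. Of the 30 member probes with such partners, 2 were called between apex and base, beside 10.4% of all probes tested in this way. This count depended on the processing. It was 7 with the normexp correction, 4 with only probes well above background and 4 with 16 added to the signal before log2. The shares of all probes under these settings were not counted. The first of the 2 was Kcnj3 probe 2, whose signal was 135, 134, 173 and 155 in the apex and 136, 114, 124 and 129 in the base. Its difference was 0.24 log2 units (adjusted p = 0.096), against 1.53 for probe 1 and 1.34 for probe 3 (adjusted p = 0.0033 and 0.0036), and it lay -1.20 from the mean of these (adjusted p = 0.012). Probe 1, with 71.9, 40.6, 62.9 and 43.4 in the apex, was well above background on no basal array, so that its basal level is only a bound. Its basal readings all lay above the lowest signal that counted as well above background on their array, and the bound, at least 2.89-fold, is therefore the fitted difference itself. The sequences of probes 1 and 2 are shown above.

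The second was Kcnk2 probe 2, whose signal was 628, 585, 525 and 580 on the apical arrays, 324, 253, 292 and 286 on the middle arrays, and 314, 240.5, 289 and 306 on the basal arrays. It fell by about the same step in both turns, with 1.02 for apex minus base (adjusted p = 5.7e-05) and 1.01 for apex minus middle (adjusted p = 0.00083), and it lay 0.88 above the other probes of Kcnk2 between apex and base (adjusted p = 0.0048). Kcnk2 probe 6, which holds the codons of the pore filter, was 1.05 higher in the apex than in the middle turn (adjusted p = 0.025) and 0.44 higher than in the base (adjusted p = 0.16). Its signal was 143, 88.7, 120 and 109 on the apical arrays and 42.2, 59.4, 72.4 and 49.7 on the middle arrays. It was well above background on 2 of the 4 middle arrays. The remaining 6 Kcnk2 probes differed by 0.18 to 0.54 between apex and middle, and none of them was called.

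Kcnk2 probe 7 read 824 on basal array 1 and 110, 155 and 126 on the other basal arrays. Without basal array 1 the Kcnk2 gene level differed by 0.35 log2 units between apex and base (adjusted p = 0.084), and the difference between apex and middle remained called (adjusted p = 0.026). Its like partner, Kcnk10 probe 6, read 42.1 on basal array 1 and 24.0 to 37.6 on the other basal arrays.

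Kcnk10 rested on few bright probes. Of its 7 probes, 3 (probes 3, 6 and 7) cleared background on every array of some turn. The last, probe 7, near the 3′ end, read 191, 113.5, 178 and 157.5 on the apical arrays, 267, 120, 146 and 103 on the middle arrays, and 57.8, 17.7, 143 and 26.7 on the basal arrays. Its difference between apex and base was 1.82 (adjusted p = 0.026), with basal array 3 among the apical values, and the other 6 probes differed by 0.38 to 0.93 and were not called. Kcnj11 probes 2 and 3 were called between apex and base (0.94 with adjusted p = 0.0069 and 1.46 with adjusted p = 0.0065), and probe 1 was well above background on no array. Of the Kcnk3 probes, probe 2 read 361, 328, 281 and 354 in the apex and 72.0, 81.9, 131 and 105 in the base, a difference of 1.79 (adjusted p = 7.4e-05), and probe 1 was well above background on 2 apical arrays and on no other. The 3 probes of Kcnk1 differed by 0.05 to 0.14 between apex and base.

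**Figure D4:**
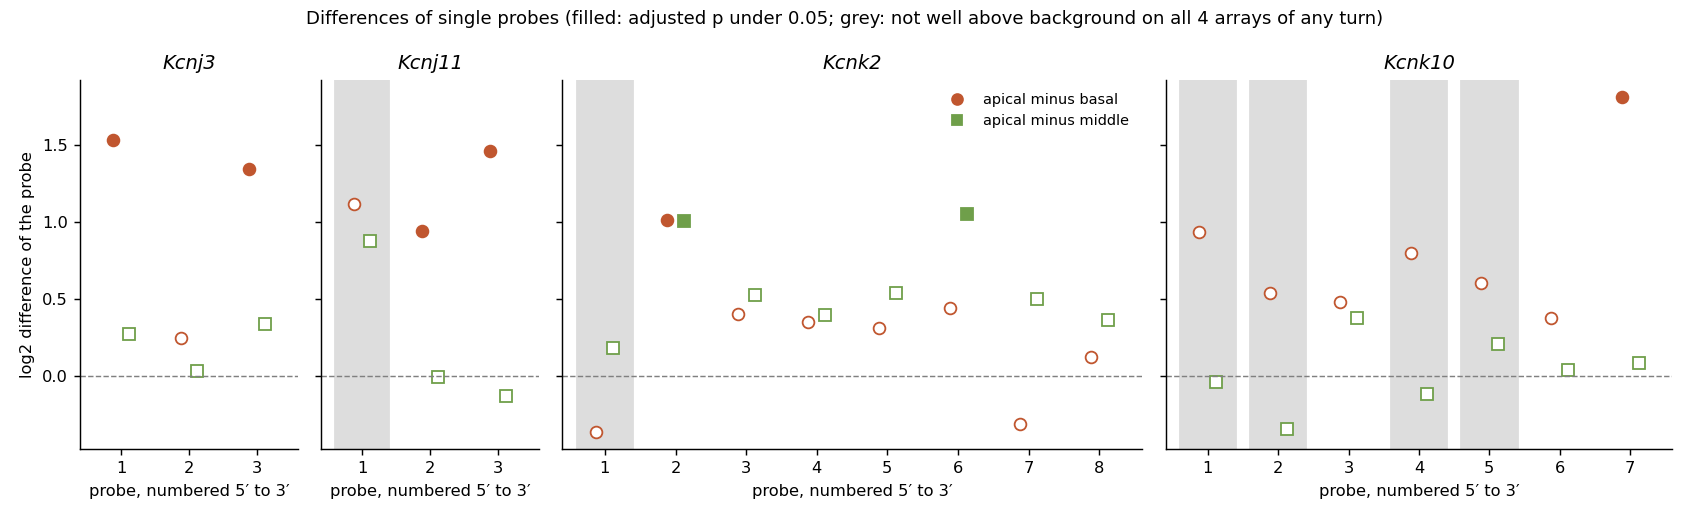
Log2 difference (y axis) of each probe of Kcnj3, Kcnj11, Kcnk2 and Kcnk10, numbered 5′ to 3′ (x axis), as apical minus basal (circles) and apical minus middle (squares). Each point is a difference of means of 4 arrays, filled points have an adjusted p under 0.05, and grey marks probes that were not well above background on all 4 arrays of any turn. Kcnj3 probe 2 lies at 0.24 between probes at 1.53 and 1.34, and Kcnk10 probe 7 lies at 1.82.

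The other genes of the Kir and K2P family were read beside the members. Of 29 genes listed, 28 were on the array, and Kcnk16 was not matched. Of the 18 that were not members, 1 (Kcnj9) was called higher in the apical than the basal turn and 3 (Kcnj4, Kcnj10 and Kcnk5) the other way, beside the 17.6% and 21.6% of all genes given above. Kcnj10 and Kcnk5 fall outside the rule by which genes were named and were chosen after their values were seen. Kcnj10, the strial and glial partner of Kcnj16, had a signal of 17934, 19145, 16427 and 18785 on the apical arrays, 21447, 21435, 24156 and 23500 on the middle arrays, and 29055, 31954, 28455 and 34386 on the basal arrays. The turns did not overlap, with -0.78 log2 units for apex minus base (SE 0.08, adjusted p = 2.5e-05), -0.33 for apex minus middle (adjusted p = 0.022) and -0.45 for middle minus base (adjusted p = 0.0028). Kcnj10 thus had the same direction as Kcnj16, at -0.67. It is also among the strial intermediate cell markers counted above. Kcnk5, which encodes the alkali-activated channel TASK2, was higher in the base than in the apex by 1.63-fold (-0.70, adjusted p = 0.00026).

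Kcnj4, which encodes the strong inward rectifier Kir2.3, was read by 1 dim probe, with 33.7, 31.7, 51.7 and 57.2 on the apical arrays, 62.6, 53.3, 36.4 and 37.6 on the middle arrays, and 102, 85.8, 56.4 and 128 on the basal arrays. The base exceeded the apex 2.11-fold (-1.08 as apical minus basal, SE 0.28, adjusted p = 0.010), though basal array 3 fell below the highest apical array. Without that array the difference was -1.30 (adjusted p = 0.0028). Middle and base differed by -0.95 (adjusted p = 0.036).

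Partners that could form channels with Kcnj3 were dim. Kcnj5, the usual partner of Kir3.1 in the heart, was well above background on no array. Kcnj6 differed by 0.04 between apex and base (95% interval -0.13 to 0.22), a sign that turned with scaling to the median (-0.07), with quantile normalization (-0.09) and with spike-in centring (-0.37, adjusted p = 0.0021). Kcnj9 was well above background on no basal array and on at most 3 apical arrays, and its apical signal was at least 1.08-fold that of the base. This bound was not tested. The limma fit to the readings themselves, dim basal ones included, called Kcnj9 higher in the apex (adjusted p = 0.024). That call was lost without apical array 3 (adjusted p = 0.070) or basal array 2 (adjusted p = 0.054). It was also lost with the normexp correction (adjusted p = 0.32) and with spike-in centring (adjusted p = 0.19).

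Of the 15 G protein subunits and regulators of Kir3 channels, 4 were called toward the apex and 2 toward the base, beside 17.6% and 21.6% of all genes, with a median of 0.06 log2 units beside -0.04 for all genes. Gng3, a gamma subunit of neurons, read 3663, 2844, 3714 and 3336 in the apex and 1275, 593, 2918 and 977 in the base (1.48, SE 0.39, adjusted p = 0.011). Rgs7, which speeds the closing of Kir3 channels, read 63.0, 42.5, 51.3 and 45.4 in the apex and 17.5, 14.9, 40.1 and 18.5 in the base (1.25, SE 0.30, adjusted p = 0.0065). On basal array 3, where the neuronal markers stood apart, both genes were highest among the basal arrays, as Kcnj3 was.

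Of 8 receptors known to open Kir3 channels, 1 was called toward each end, beside the same shares of all genes. Gabbr2, a subunit of the GABA-B receptor, read 293, 215, 266 and 227 in the apex and 105, 60.7, 181 and 67.6 in the base (1.40, SE 0.32, adjusted p = 0.0045). The 5 anchoring genes of Kir channels gave 1 call in the apex and 2 in the base, and the 4 trafficking genes of K2P channels gave 2 in each direction. Their medians were 0.09 and 0.01 log2 units. Lists this small cannot be set apart from the shares of all genes by these counts.

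The sulfonylurea receptors, the regulatory partners of Kir6 pores, were both called higher apically than basally. Abcc8 (SUR1) read 118, 108, 127 and 110 in the apex and 76.7, 60.7, 100.2 and 72.5 in the base (0.60, SE 0.15, adjusted p = 0.0077). Abcc9 (SUR2), the partner of Kir6.1 in vascular cells, read 144, 156, 129 and 155 in the apex and 105, 109, 105 and 111 in the base (0.44, SE 0.06, adjusted p = 3e-04). Abcc9 was thus opposite in direction to Kcnj8 (-0.57), and Abcc8 had the direction of Kcnj11 (1.18). With the arrays centred on the spike-in probes, both receptor differences were no longer called, at 0.18 for Abcc8 (adjusted p = 0.28) and 0.02 for Abcc9 (adjusted p = 0.88). The call of Abcc8 was also lost with the normexp correction (0.22, adjusted p = 0.069) and with linear means of its probes (0.22, adjusted p = 0.13).

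For the 3 members that differed 2-fold, the genes nearest in pattern were sought among 16511 genes, by the root mean square (RMS) difference of centred log2 values over the 12 arrays. For Kcnj3 they included Cntnap5b and Gria3, with RMS differences of 0.10 and 0.11, beside an RMS of 0.52 for Kcnj3 about its own mean. For Kcnj11 they were Tro, Ppm1e and Gnal, with 0.16, 0.18 and 0.18, beside 0.61. For Kcnk3 they were Gm10471, Gipc2 and Gpx6, with 0.27, 0.28 and 0.29, beside 0.72.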

How the data were processed

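Total RNA of 12 cochlear turn samples was measured on 1-color exon arrays. The deposited values are fluorescence intensities per spot, made by the authors with Agilent Feature Extraction 10.7.3.1, with background subtracted and no normalization between arrays. The value table of the series held the same values at every spot of the 12 arrays.

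From there, 7914 control spots of 180880 were left out, and so were 622 spots that carried an outlier flag on at least 1 array, which removed 119 probes and left 165865. Each array was scaled to a 75th percentile of 641.3, signals were log2 transformed, and spots of a probe and then probes of a gene were averaged. Turns were compared with limma 3.58.1 (lmFit, eBayes and moderated contrasts over all 12 arrays) in R 4.3.3, with Benjamini-Hochberg adjustment over 19505 genes or all probes, and 95% intervals came from the same fit. Brightness and the 4 arrays per turn limit the precision.

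The members, the gene lists and the tests were chosen with earlier results of these data known. Named beside the members were genes of the family and partner lists called at 2-fold or more in any comparison, the direct partners Abcc8, Abcc9, Kcnj5, Kcnj6 and Kcnj9, and the 3 genes nearest in pattern to each member that differed 2-fold, among genes of which some probe cleared background throughout a turn. Where a probe was well above background on no array of a turn, a fold was given as a lower bound, with the lowest signal well above background on each array of that turn, or the probe's own where higher; a gene was treated so only where this held for all of its probes. Alternatives covered the scaling, background correction, probe summary, filters, test, block and each array left out. The paper's qPCR was not analysed here. One gene that the naming rule selects is not reported here.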

Additional observations from a re-analysis of the deposited data

Results flagged for a closer look

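Among 63 groups of 4 arrays for the named genes and 96 for the member probes, a few held 1 array far from the other 3 by Dixon's ratio, which chance gives in about 1 group of 20. Kcnk1 was 2737 on apical array 1 and 2473 to 2488 on the others. Kcnk3 was 112.0 on apical array 4 and 91.5 to 93.7 on the others. Its dim probe 1 read 24.4, 26.4, 29.8 and 35.4 on apical arrays 1 to 4, and its probe 2 read 361, 328, 281 and 354. On middle array 1, where the neuronal markers were highest, Gng3 was 5101 (2761 to 2999 on the others), Rgs7 was 74.0 (39.5 to 42.8) and Abcc8 was 147.6 (105.8 to 111.8). Kcnj5, which was not above background, was 5.3 on middle array 3 and 7.4 to 7.8 on the others. Kcnj11 probe 2 was 38.6 on basal array 3, where neuronal markers stood apart, and 21.7 to 22.4 on the others. Kcnk2 probe 7 was 823.9 on basal array 1 and 109.7 to 154.6 on the others.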

How the results depend on the processing

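Of 12 called differences of members, 151 of 168 values from 14 other ways of processing kept their direction and call and 17 lost the call. With 1 array left out, 113 of 144 kept it and 31 lost it. Among the 14 ways, the fit to the value table of the series repeats the main fit. Its agreement was fixed in advance, for called and uncalled differences alike. Those of Kcnj3, Kcnj8, Kcnj11, Kcnj16 and Kcnk3 between apex and base and of Kcnj3 between middle and base were called in each of these fits. Of 252 values of uncalled differences, 216 stayed as they were, 22 passed the threshold and 14 turned sign.

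Members called between apex and middle numbered 2, against 0 with the median of probes, 1 with quantile normalization, 1 with the unmoderated test and 4 with the replicate block. The replicate block left 6 called between apex and base and 6, against 4, between middle and base, where Kcnk3 (adjusted p = 0.012) and Kcnk10 (adjusted p = 0.012) were added, while Kcnk3 (adjusted p = 0.040) and Kcnj16 (adjusted p = 0.049) were added between apex and middle. The deviations of same-numbered samples from their turn means correlated at over 0.1 in 6 of 12 pairs (mean 0.09), and those of samples with different numbers in 2 of 36 (mean -0.03), a hint from the data only, so the numbers were not taken as pairs. Between middle and base, 2 were called with only those turns compared. Spike-in centring raised the calls in the whole family from 10 to 19 of 28, and those over all genes from 7645 to 14310 of 19505. With 1 array left out, members called ranged from 5 to 7 (apex and base), 0 to 2 (apex and middle) and 1 to 6 (middle and base), family genes from 8 to 11 and member probes from 9 to 11.

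Signs turned as follows, each for a difference that was not called in the first place. With spike-in centring, apical minus basal was -0.312 for Kcnk1, -0.1734 for Kcnk2 and -0.3733 for Kcnj6, apical minus middle was -0.1312 for Kcnk10 and middle minus basal was -0.0231 for Kcnk1. With scaling to the median, Kcnk1 was -0.0108 and Kcnj6 -0.0721 (apical minus basal) and Kcnk10 -0.0243 (apical minus middle). With quantile normalization, Kcnj13 was 0.1418 and Kcnj6 -0.0874 (apical minus basal) and Kcnk10 -0.0209 (apical minus middle). With normexp, Kcnj11 was -0.0477 and Kcnk10 -0.0622 (apical minus middle) and Kcnj2 0.0162 (middle minus basal). Kcnj11, apical minus middle, was -0.0076 with the median of probes, -0.0443 with linear means and -0.0689 with bright probes only. With 1 array left out, Kcnj13 ranged from -0.1277 to 0.1325 and Kcnj5 from -0.1635 to 0.1054 (apical minus basal), Kcnk10 from -0.1478 to 0.2153 (apical minus middle) and Kcnj2 from -0.1906 to 0.2603 (middle minus basal). The cause was not tested. Signals near background limit Kcnj2, Kcnk10 and the dim probes of Kcnj3, Kcnj11 and Kcnk3.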
